A study of Mus musculus with 26 samples.

Results

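Mouse livers without either intact copy of Mtarc1 were compared with livers that had lost 1 copy, all on the same steatohepatitis diet. The comparison takes the 8 samples whose titles name a homozygous Mtarc1 knockout on CDAHFD and the 7 whose titles name a heterozygous knockout on CDAHFD, 15 of the 26 samples in the series. CDAHFD is a high-fat diet with defined amino acids and no choline, and the knockout mice had eaten it for 2 weeks when RNA was taken. Wildtype mice on CDAHFD (n = 6, also 2 weeks) and wildtype mice on chow (n = 5) are given for reference only. The labels do not say which stretch of Mtarc1 the allele lacks, whether the deletion is germline, or the age, sex or strain of the animals. They number the samples without stating that each is a separate animal, so a p-value here reflects variation among the deposited samples, which may in part be technical. Knockout mice on chow are not among the 4 groups, so an effect of genotype that needs no diet cannot be told apart from one that needs it.

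Mtarc1 encodes mitochondrial amidoxime reducing component 1 (mARC1), a molybdenum cofactor enzyme anchored in the outer mitochondrial membrane. It takes electrons from NADH through cytochrome b5 reductase and cytochrome b5 and reduces N-hydroxylated compounds, and its paralogue mARC2, encoded by the neighbouring gene Mtarc2, catalyses the same kind of reaction. In humans, variants that lower mARC1 function have been linked to less liver fat and less cirrhosis. In livers without choline, export of triglyceride in lipoproteins is impaired, fat accumulates in hepatocytes, and macrophages and matrix-producing stellate cells are activated.

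Mtarc1 itself separated the genotypes and was the 1 gene of 17104 that passed the test. Levels are given as CPM, counts scaled to a common library total after TMM normalisation, so they compare a gene between libraries and not genes of different length with each other. Mtarc1 (ENSMUSG00000026621) ranged from 111.6 to 208.0 CPM with a median of 161.5 in heterozygous livers, and from 33.4 to 65.3 CPM with a median of 48.8 in homozygous livers. Every homozygous library lay below every heterozygous one. The homozygous mean was 48.7 ± 10.4 CPM (SD, n = 8) and the heterozygous mean 160.7 ± 33.7 CPM (SD, n = 7), so homozygous livers held 30.3% of the heterozygous level. The exact permutation test, two-sided, gave p = 0.0003108, the smallest its 6435 arrangements allow. In the edgeR quasi-likelihood fit the log2 fold change, homozygous minus heterozygous, was -1.72 ± 0.14 (SE), with a Benjamini-Hochberg adjusted p of 2.36e-08. The reads that remained in homozygous livers cannot be assigned to a transcript from a table of gene totals.

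The library names in the labels form 2 number series, one with 4 digits (3 heterozygous and 2 homozygous libraries) and one with 5 digits (4 and 6). The labels do not call these batches. Homozygous livers held 29.8% of the heterozygous Mtarc1 level in the 4-digit series and 32.4% in the 5-digit series. The difference stratified by series was -107.9 CPM, and its exact permutation p was 0.000952, the least that 2100 arrangements allow. Fitted on the 5 libraries with 4-digit names alone, Mtarc1 had a log2 fold change of -1.74 and an edgeR adjusted p of 0.132. No gene passed the edgeR test for a different genotype effect in the 2 series (0 of 16084 at adjusted p under 0.05, and 286, or 1.78%, at unadjusted p under 0.05). With 3 and 2 libraries in the 4-digit series this test can miss differences, so it does not show that the effect was the same in both.

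Mtarc2 did not differ between the genotypes beyond the spread of the libraries. It ranged from 283.5 to 373.6 CPM with a median of 362.4 in heterozygous livers, and from 280.8 to 391.2 CPM with a median of 317.0 in homozygous livers. The 2 ranges overlapped almost fully. The log2 fold change was -0.06 ± 0.09 (SE), and the exact permutation p was 0.539 pooled and 0.783 stratified by number series. The electron donors of mARC did not pass either. Cyb5b, the outer mitochondrial membrane cytochrome b5, had a log2 fold change of -0.21 ± 0.21, and the genes of the mARC chain other than Mtarc1 (7 tested with it) lay between -0.24 and 0.15.

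**Figure D1:**
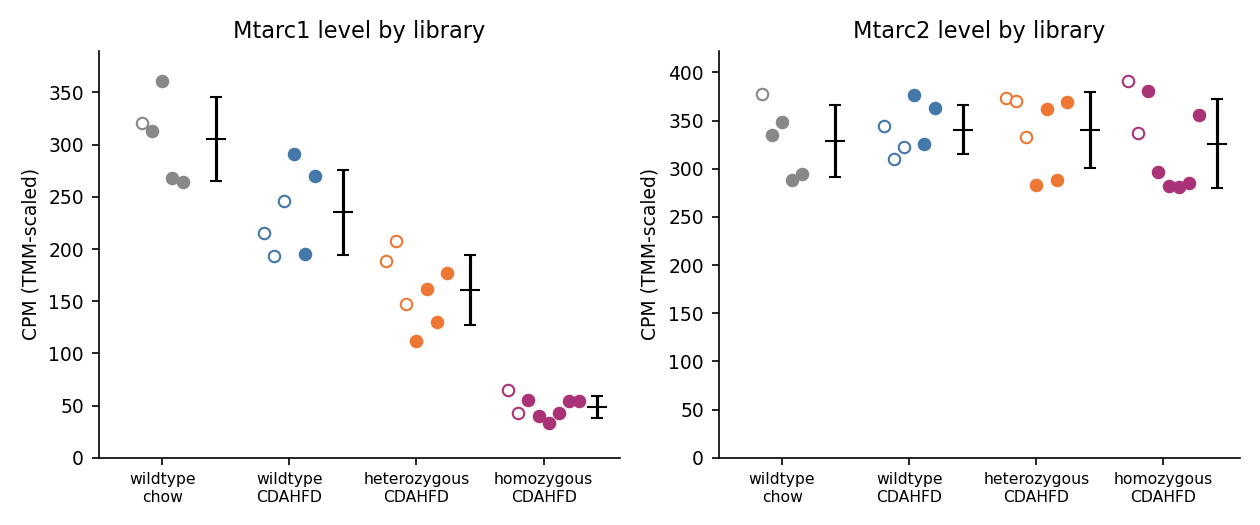
Level of Mtarc1 (left) and Mtarc2 (right) in CPM in each of the 26 libraries, by genotype and diet. Filled points are libraries with 5-digit names and open points those with 4-digit names, and bars give the mean and SD of each group. All 8 homozygous libraries lie at or below 65.3 CPM of Mtarc1 and all 7 heterozygous libraries at or above 111.6 CPM, while the Mtarc2 ranges overlap.

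Other enzymes that carry the molybdenum cofactor, and the genes that build it, stayed close to 0. Of 9 tested, 6 had a log2 fold change below 0 and none passed, with a median of -0.10. Xdh, the xanthine dehydrogenase, had -0.20 ± 0.10 (SE), with 150.3 to 205.9 CPM in homozygous and 174.0 to 274.7 CPM in heterozygous livers. The 20 tested genes nearest to Mtarc1, 10 on each side in the GENCODE order of GRCm38, were examined because flanking genes can carry sequence from the strain in which an allele was made. Of these, 12 lay below 0, none passed and 2 had an unadjusted p under 0.05. These were Mark1, a microtubule affinity-regulating kinase (-0.38 ± 0.15), and Gm2061 (0.94 ± 0.38). Hlx, a homeobox gene and the nearest tested gene on the side away from Mtarc2, had -0.29 ± 0.14.

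Across all genes the 2 knockout groups were close. Of 17104 genes tested, 1 was called lower at an adjusted p under 0.05 (0.00585%) and 0 were called higher. At an unadjusted p under 0.05 there were 1219 genes (7.13%), 613 lower (3.58%) and 606 higher (3.54%). The median log2 fold change was -0.0013 and 49.7% of genes lay above 0 and 50.3% below. Limma voom also called 1 gene, and DESeq2 called 17, with 1294 at unadjusted p under 0.05. Of the 17, 13 were processed pseudogenes and 4 were protein-coding, namely Mtarc1, Vsig8, Tubb3 and Gm14440. The gene groups described next are therefore given as values and counts, and apart from Mtarc1 no gene named below passed the edgeR test. The lowest adjusted p among them was 0.289, for Tubb3, and 0.339 among the others. Most of these genes were named for a low p in this same comparison. Counts of their libraries outside the range of the other group follow partly from that choice and are not separate support. For groups of genes the background is the 3.58% of all genes that were lower at unadjusted p under 0.05 and the 3.54% that were higher. That background pools gene classes that differed. Of 14272 protein-coding genes, 573 were lower and 326 higher at that threshold, while 141 of the higher genes were processed pseudogenes. Lists of protein-coding genes are therefore set against a class that itself leaned lower.

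**Figure D2:**
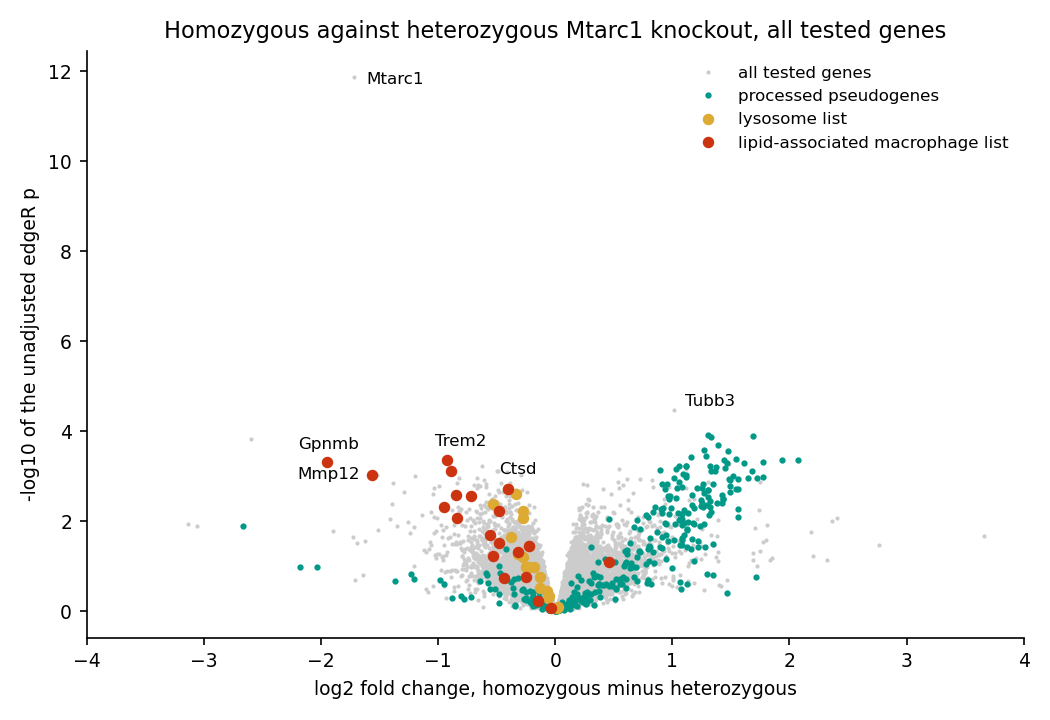
Each point is 1 tested gene, with the log2 fold change (homozygous minus heterozygous) on the horizontal axis and -log10 of the unadjusted edgeR p on the vertical axis. Mtarc1 stands apart from all other genes, genes of the lipid-associated macrophage list lie mostly left of 0 and processed pseudogenes mostly right of 0, and 4 genes with log2 fold changes beyond 4 in size are outside the axis.

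The genes that leaned lowest in homozygous livers were those of lipid-associated macrophages. These are recruited macrophages that gather around fat-laden hepatocytes, take up lipid and dead cells, and express Trem2, Gpnmb and Cd9. All 20 listed genes were tested. Of them, 19 had a log2 fold change below 0, 14 had an unadjusted p under 0.05 on the lower side, and the median was -0.51, against -0.0013 over all genes. None passed after adjustment. In bulk tissue fewer cells of a type and less RNA per cell cannot be told apart.

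Trem2 encodes the lipid-sensing receptor that gives these cells their other name. It ranged from 7.57 to 18.45 CPM with a median of 9.45 in heterozygous livers, and from 3.12 to 7.87 CPM with a median of 5.54 in homozygous livers. In 7 of 8 homozygous libraries it lay below the lowest heterozygous one. The log2 fold change was -0.92 ± 0.23 (SE), with an edgeR adjusted p of 0.339.

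Gpnmb, a transmembrane glycoprotein of lipid-laden macrophages, had the largest difference in the list. It ranged from 11.6 to 43.9 CPM with a median of 17.3 in heterozygous livers, and from 2.05 to 17.6 CPM with a median of 4.73 in homozygous livers. Homozygous sample 8 alone reached into the heterozygous range, and the other 7 lay below it. The log2 fold change was -1.95 ± 0.48, adjusted p 0.339 by edgeR.

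Clec7a, the beta-glucan receptor dectin-1, and Mmp12, the macrophage elastase, had the same layout. Clec7a had a median of 24.5 CPM in heterozygous livers (19.1 to 39.4) and 14.9 CPM in homozygous livers (10.9 to 22.2). Mmp12 had a median of 31.9 CPM in heterozygous livers (18.8 to 65.0) and 10.53 CPM in homozygous livers (3.97 to 33.9). For both genes homozygous sample 8 was the highest of its group and the other 7 lay below every heterozygous library. Their log2 fold changes were -0.89 ± 0.23 and -1.56 ± 0.41. At the other end of the list were Spp1, osteopontin, at -0.03, and Fabp5, a fatty acid binding protein, at 0.46.

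To see the list in each library, log2 CPM of every member was set against its heterozygous mean and averaged over the 20 genes. This level ran from -0.41 to 0.50 with a median of -0.07 in heterozygous livers and from -1.06 to -0.15 with a median of -0.63 in homozygous livers. In 7 of 8 homozygous livers it was below the lowest heterozygous one. Wildtype livers on the same diet ran from -0.55 to 0.82, overlapping both knockout groups. The list median was -0.71 in the 5-digit series, with 16 of its genes lower at unadjusted p under 0.05, and -0.33 in the 4-digit series, with 9. Without heterozygous sample 4, which held the highest level of its group, the median was -0.46 and 10 genes were lower at unadjusted p under 0.05.

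The promoters of Trem2, Gpnmb and Ctsd (a lysosomal protease described below) are shown as examples of genes that leaned the same way. Each line holds the 250 bases before the RefSeq transcription start in GRCm38.p6, 5′ to 3′ on the strand of the gene. Trem2 is at chr17:48346151-48346400 on the plus strand, Gpnmb at chr6:49036268-49036517 on the plus strand, and Ctsd at chr7:142387828-142388077 on the minus strand. Capitals mark matches on either strand to GAGGAA, a core motif of the myeloid factor PU.1, or to CACGTG, the E-box bound by MiT/TFE factors such as TFEB, which regulate lysosomal genes.
Trem2: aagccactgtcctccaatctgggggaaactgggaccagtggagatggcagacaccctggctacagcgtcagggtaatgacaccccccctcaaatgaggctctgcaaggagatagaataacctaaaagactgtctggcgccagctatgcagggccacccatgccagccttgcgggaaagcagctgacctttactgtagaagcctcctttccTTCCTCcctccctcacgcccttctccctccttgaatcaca
Gpnmb: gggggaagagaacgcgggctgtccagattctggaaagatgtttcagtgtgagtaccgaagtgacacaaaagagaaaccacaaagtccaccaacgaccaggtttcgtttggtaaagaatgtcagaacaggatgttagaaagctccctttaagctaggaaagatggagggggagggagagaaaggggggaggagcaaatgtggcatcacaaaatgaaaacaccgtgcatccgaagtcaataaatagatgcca
Ctsd: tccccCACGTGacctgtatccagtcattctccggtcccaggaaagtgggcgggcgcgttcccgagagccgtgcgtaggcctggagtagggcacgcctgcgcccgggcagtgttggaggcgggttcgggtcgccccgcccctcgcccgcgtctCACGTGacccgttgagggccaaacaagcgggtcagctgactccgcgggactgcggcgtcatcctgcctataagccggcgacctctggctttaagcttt
Trem2 held 1 match to GAGGAA, read on the minus strand, and none to CACGTG. Ctsd held 2 matches to CACGTG and none to GAGGAA, and Gpnmb held neither. The 2 motifs do not overlap in these windows. Of 32851 promoter windows of the same length, 23.3% held GAGGAA and 6.02% held CACGTG. A match describes the letters in the window and is not evidence of binding.

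Genes of Kupffer cells, the resident macrophages, leaned less. Of 12 tested, 10 lay below 0 with a median of -0.19, and 1 had an unadjusted p under 0.05, a count that ran from 0 to 2 as single libraries were left out. Csf1r, the receptor for the growth factor of macrophages, ranged from 60.0 to 85.5 CPM in heterozygous and from 47.8 to 79.8 CPM in homozygous livers, with a log2 fold change of -0.28 ± 0.12. The direction was not shared by the 2 number series: the median was -0.33 with 5-digit and 0.19 with 4-digit names, and Csf1r was at -0.43 and 0.08.

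Antigen presentation and dendritic cell genes also lay mostly below 0. Of 11 tested, 10 did so, the median was -0.32, and 5 were lower at unadjusted p under 0.05. For 5-digit names the median was -0.44 with 6 such genes, and for 4-digit names -0.19 with 0. Flt3, the growth factor receptor of dendritic cell precursors, had a median of 1.32 CPM in heterozygous and 0.74 CPM in homozygous livers (-0.70 ± 0.25). Ciita, the master activator of MHC class II genes, had -0.54 ± 0.21, and Cd74, the invariant chain, -0.40 ± 0.16. Without heterozygous sample 4 the list median was -0.20, with 2 genes lower at unadjusted p under 0.05, and without homozygous sample 2 there were 3.

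Cd83, a surface protein of activated dendritic and B cells, was chosen by its p over all genes rather than from a list. It ranged from 4.13 to 6.19 CPM with a median of 4.64 in heterozygous livers, and from 2.55 to 4.04 CPM with a median of 2.94 in homozygous livers, without overlap. Its log2 fold change was -0.63 ± 0.16, adjusted p 0.339 by edgeR. Vsir, the immune checkpoint protein VISTA, had -0.49 ± 0.13, with 7 of 8 homozygous libraries below the lowest heterozygous one.

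Inflammatory signalling and chemokine genes numbered 19 tested, of which 18 lay below 0 and 6 were lower at unadjusted p under 0.05, with a median of -0.40. Vcam1, an adhesion molecule that holds leukocytes to endothelium, ranged from 29.2 to 39.9 CPM in heterozygous and from 15.5 to 34.8 CPM in homozygous livers, with 7 of 8 homozygous libraries below the heterozygous range. Its log2 fold change was -0.48 ± 0.14. Tnfaip3, a feedback inhibitor of NF-kappaB, had -0.56 ± 0.20, and Ccl2, the chemokine that recruits monocytes, had -0.57 ± 0.23. Without heterozygous sample 4 the list median was -0.24 and 3 genes were lower at unadjusted p under 0.05, and without homozygous sample 3 or 6 there were also 3.

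Lymphocyte lists were mixed. Of 14 T and NK cell genes, 10 lay below 0 with a median of -0.14, and 3 were lower at unadjusted p under 0.05, or 1 without heterozygous sample 4 or 7. The median was -0.31 with 5-digit names and 0.08, with 4 of 14 below 0, with 4-digit names. Klrb1c, the NK receptor NK1.1, had a median of 0.82 CPM in heterozygous and 0.28 CPM in homozygous livers (-0.97 ± 0.36). Of 9 B and plasma cell genes, 8 lay above 0, with a median of 0.14 and none at unadjusted p under 0.05. This direction was not shared by the number series, with a median of -0.10 and 7 of 9 below 0 for 5-digit names and a median of 0.56 for 4-digit names, and without homozygous sample 7 the median was -0.0016. Interferon response genes, 17 tested, were above 0 for 13, with a median of 0.11. Among them Mx2, a dynamin-like antiviral GTPase, had 0.35 ± 0.16, the 1 member higher at unadjusted p under 0.05. That count was 3 without homozygous sample 2 or 5, 2 without heterozygous sample 1, and 0 without heterozygous sample 2, 6 or 7 or homozygous sample 1 or 7.

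**Figure D3:**
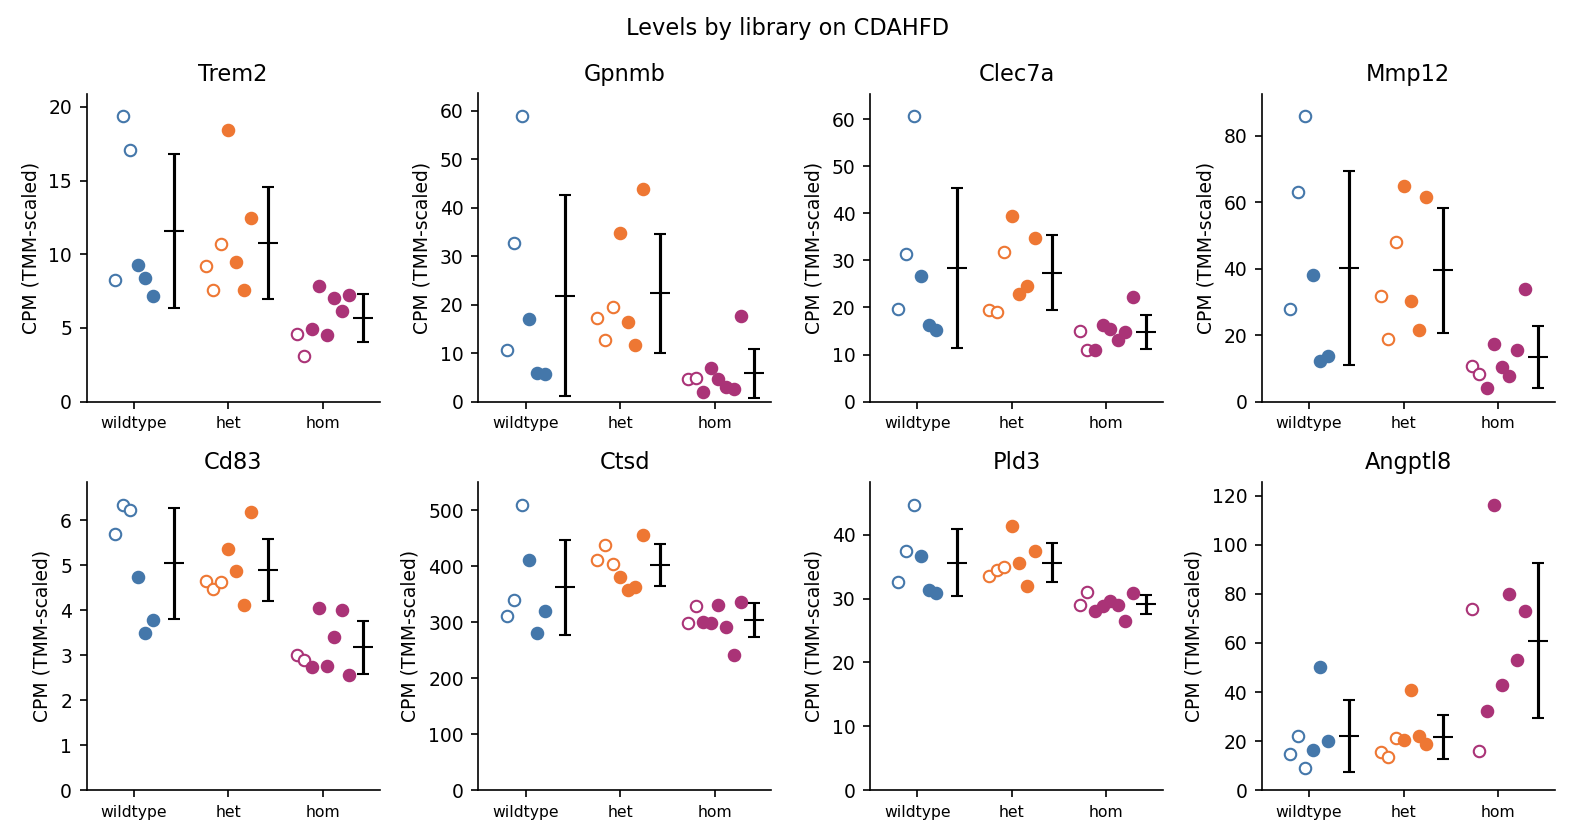
Levels in CPM of 8 genes in the wildtype, heterozygous (het) and homozygous (hom) libraries on CDAHFD; filled points are 5-digit and open points 4-digit library names, bars give mean and SD. Cd83, Ctsd and Pld3 show no overlap between the knockout groups, Trem2, Gpnmb, Clec7a and Mmp12 overlap through 1 homozygous library, and Angptl8 is spread widely among homozygous livers.

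Lysosomal genes lay mostly below 0, by a smaller margin. Of 19 tested, 17 did so, the median was -0.23, and 7 were lower at unadjusted p under 0.05. That count ran from 5 without heterozygous sample 7 to 10 without heterozygous sample 4. It was 6 with 5-digit names and 2 with 4-digit names. Ctsd, the aspartic protease cathepsin D, ranged from 356.8 to 456.8 CPM with a median of 405.0 in heterozygous livers and from 241.7 to 336.2 CPM with a median of 299.4 in homozygous livers, with no overlap. Its log2 fold change was -0.40 ± 0.12, adjusted p 0.339 by edgeR. Hexa, a subunit of beta-hexosaminidase, had -0.33 ± 0.10, and Ctss, cathepsin S of antigen-presenting cells, had -0.53 ± 0.17. In each, 7 of 8 homozygous libraries lay below the heterozygous range. Pld3, a lysosomal exonuclease outside the list, ranged from 31.9 to 41.4 CPM in heterozygous and from 26.5 to 31.0 CPM in homozygous livers, also without overlap (-0.29 ± 0.08). The lysosome list shares Ctsd and Ctsb with the macrophage list, and it was not tested which cells its transcripts came from.

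Over all 17104 genes, 7 had every homozygous library below every heterozygous one (0.0409%) and 2 had every homozygous library above (0.0117%). With 6435 arrangements of these libraries, a few of 17104 genes would separate fully in each direction by chance alone. The 7 were Mtarc1, Cd83, Pld3, Ctsd, Fhod3, Rab8b and Gm5086, and the 2 were Zfp697 and Tmem161a. Fhod3, Rab8b, Gm5086, Zfp697 and Tmem161a were chosen after their values were seen. Fhod3, a formin that assembles actin, ranged from 1.38 to 1.79 CPM in heterozygous and from 0.59 to 1.34 CPM in homozygous livers, and Rab8b, a small GTPase of vesicle traffic, from 7.31 to 10.2 and from 6.28 to 7.17 CPM. Tmem161a was at 18.3 to 21.97 CPM in heterozygous and 22.1 to 25.3 CPM in homozygous livers (0.23 ± 0.08), and Zfp697, a zinc finger gene, at 2.41 to 3.42 and 3.48 to 4.63 CPM (0.39 ± 0.13). Gm5086 was low throughout, at 0.39 to 0.73 CPM in heterozygous and 0.08 to 0.38 CPM in homozygous livers.

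Genes of scar formation leaned the same way as the macrophage genes, by less. Of 13 collagen genes 11 lay below 0, with a median of -0.28 and 4 lower at unadjusted p under 0.05. Col4a2 and Col4a1, chains of basement membrane collagen, had -0.37 ± 0.13 and -0.37 ± 0.14, and Col3a1, a fibrillar collagen, had -0.40 ± 0.18. Col3a1 ranged from 106.7 to 172.2 CPM in heterozygous and from 82.0 to 128.7 CPM in homozygous livers, and heterozygous sample 1 was the 1 heterozygous library within the homozygous range. The count of lower collagen genes was 8 without heterozygous sample 1, 7 without homozygous sample 4, and 2 without heterozygous sample 3, 4 or 6 or homozygous sample 3 or 5. Among 16 matrix glycoproteins and proteoglycans 14 lay below 0, with a median of -0.16. Of these, 3 were lower at unadjusted p under 0.05, or 5 without heterozygous sample 7. The 2 with the lowest p were Nid1, the basement membrane linker nidogen, at -0.67 ± 0.19, and Lum, the collagen-binding lumican, at -0.58 ± 0.19. Of 15 matrix remodelling genes 13 lay below 0, with a median of -0.25 and 2 lower at unadjusted p under 0.05, a count that ran from 1 to 5 as single libraries were left out. Mmp13, a collagenase, had -1.13 ± 0.39, with a median of 3.85 CPM in heterozygous and 2.66 CPM in homozygous livers.

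Receptors and cells that drive matrix production showed values of similar size. Of 18 TGF-beta pathway genes 14 lay below 0, with a median of -0.19, 4 lower and 1 higher at unadjusted p under 0.05. The lower count ran from 3 to 6 as single libraries were left out. Tgfbr1 and Tgfbr2, the 2 receptor subunits, had -0.25 ± 0.08 and -0.38 ± 0.13. Tgfbr1 ranged from 31.2 to 37.1 CPM in heterozygous and from 21.8 to 31.4 CPM in homozygous livers, with 7 of 8 homozygous libraries below the heterozygous range. Of 14 stellate cell genes 12 lay below 0, with a median of -0.27 and 5 lower at unadjusted p under 0.05. That count was 3 without heterozygous sample 2 or 4 or homozygous sample 4, and 2 without heterozygous sample 6. For 5-digit names the stellate median was -0.34 with 6 such genes, and for 4-digit names -0.15 with 0. Hand2, a transcription factor of stellate cells, had -0.42 ± 0.13, and Bmp10, a circulating endothelial ligand they secrete, had -0.64 ± 0.21. Of 8 contractile myofibroblast genes 6 lay below 0 and none had an unadjusted p under 0.05, with a median of -0.22. Tagln, an actin-binding protein, had -0.36 ± 0.19, and Tpm2, a tropomyosin, had 0.39 ± 0.20. Endothelial genes did not share the direction: 13 of 15 lay above 0 with a median of 0.05, and the median was -0.11 with 5-digit and 0.33 with 4-digit names, and it was below 0 without heterozygous sample 1 or 7 or homozygous sample 1 (lowest -0.06).

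Stress and acute phase genes lay mostly below 0 with wide spread. Of 17 acute phase genes 14 did so, with a median of -0.15 and 3 lower at unadjusted p under 0.05, a count that ran from 1 to 5 as single libraries were left out. The median was -0.02 with 5-digit and -0.40 with 4-digit names. Lcn2, the iron-chelator-binding lipocalin, ranged from 78.5 to 279.1 CPM with a median of 189.6 in heterozygous livers and from 45.0 to 185.8 CPM with a median of 80.3 in homozygous livers (-0.96 ± 0.37). The ranges overlapped widely, and 4 of 8 homozygous libraries lay below the lowest heterozygous one. Of 14 immediate early and heat shock genes 13 lay below 0, with a median of -0.22, which was -0.07 with 5-digit and -0.76 with 4-digit names. Hspb1, a small heat shock protein, had -0.58 ± 0.19. Igfbp1, an insulin-repressed binding protein for insulin-like growth factors, had -1.24 ± 0.49, with 28.4 to 267.4 CPM in heterozygous and 16.5 to 115.2 CPM in homozygous livers.

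**Figure D4:**
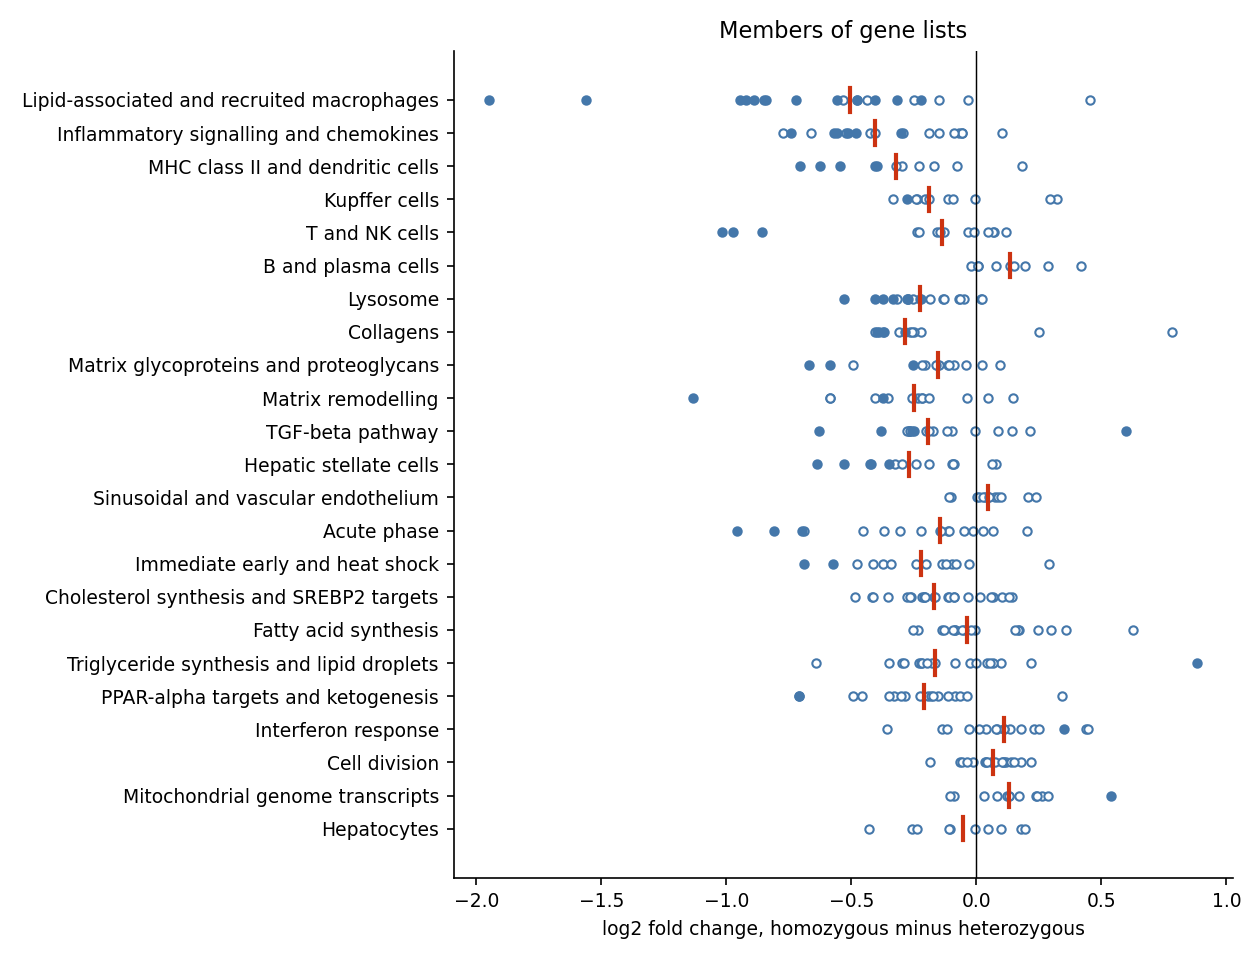
Each row is a gene list and each circle 1 tested member, placed by its log2 fold change (homozygous minus heterozygous). Filled circles have an unadjusted edgeR p under 0.05 and red bars mark the list median; the macrophage list has the lowest median of the rows shown, -0.51, and the hepatocyte list lies at -0.06.

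In lipid metabolism few genes had a low p. Of 24 cholesterol synthesis genes 18 lay below 0 with a median of -0.17, and none had an unadjusted p under 0.05. Of 18 fatty acid synthesis genes 11 lay below 0 with a median of -0.04, again with none, and the median was 0.06 with 5-digit and 0.01 with 4-digit names. Srebf1, the master regulator of fatty acid synthesis, had 0.36 ± 0.19. Among PPAR-alpha targets and ketogenesis genes 17 of 18 lay below 0, with a median of -0.21 and 1 lower at unadjusted p under 0.05, Acot1, an acyl-CoA thioesterase (-0.71 ± 0.34). That count ran from 0 to 4 as single libraries were left out, and was 4 without heterozygous sample 3 or homozygous sample 1 or 5.

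Angptl8, an insulin-induced secreted inhibitor of lipoprotein lipase, ranged from 13.4 to 40.8 CPM with a median of 20.5 in heterozygous livers, and from 16.04 to 116.3 CPM with a median of 63.2 in homozygous livers. In 6 of 8 homozygous libraries it was above the highest heterozygous one, and its log2 fold change was 1.49 ± 0.37, adjusted p 0.339 by edgeR. G0s2, the inhibitor of adipose triglyceride lipase, had a median of 62.1 CPM (55.8 to 101.9) in heterozygous and 132.3 CPM (59.7 to 248.8) in homozygous livers. It too exceeded the heterozygous range in 6 of 8 homozygous libraries (0.88 ± 0.30). The lists they belong to did not follow: 10 of 16 lipoprotein genes and 12 of 19 triglyceride and lipid droplet genes lay below 0.

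Mouse orthologs of other human fatty liver genes did not pass. Pnpla3, the lipid droplet lipase, had low levels, at 0.18 to 1.56 CPM in heterozygous and 0.36 to 3.33 CPM in homozygous livers (0.63 ± 0.43), and its log2 fold change was 0.21 without homozygous sample 6. Hsd17b13, a hepatocyte lipid droplet protein, had -0.20 ± 0.13, with 367.6 to 666.0 and 338.0 to 495.0 CPM. Hepatocyte markers were present in all libraries, as a liver label requires. Alb, albumin, had a median of 61569 CPM in heterozygous and 65583 CPM in homozygous livers (0.10 ± 0.13), and 6 of 10 hepatocyte markers lay below 0 with a median of -0.06. Glul, the glutamine synthetase of hepatocytes around the central vein, had -0.30 ± 0.13. Of 11 pancreatic acinar genes 2 were detected well enough to be tested, and of 9 adipocyte genes 4.

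Transcripts of the mitochondrial genome and of nuclear respiratory genes were close to 0 or slightly above. Of 13 mitochondrial transcripts 11 lay above 0, with a median of 0.13, and mt-Atp6, a subunit of ATP synthase, had 0.54 ± 0.20. They made up 8.08% ± 1.85 (SD, n = 7) of the counts in heterozygous and 9.29% ± 1.64 (SD, n = 8) in homozygous libraries, with an exact permutation p of 0.200. Cycs, cytochrome c, had 0.20 ± 0.07, with 105.5 to 130.0 CPM in heterozygous and 122.2 to 156.9 CPM in homozygous livers.

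Most of the genes with the lowest p on the higher side were processed pseudogenes, copies of spliced transcripts inserted elsewhere in the genome. Of 348 tested, 275 lay above 0 (79.0%), with a median of 0.54, and 141 were higher and 2 lower at unadjusted p under 0.05. For protein-coding genes the median was -0.014. Gm5513 had a median of 1.27 CPM (0.99 to 1.46) in heterozygous and 2.39 CPM (1.23 to 6.81) in homozygous livers, and a log2 fold change of 1.31 ± 0.29. These genes share sequence with their parent genes, and an assignment of reads between the copies is uncertain.

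The pseudogene difference was largest in 3 homozygous libraries. Set against the heterozygous mean, the median processed pseudogene was at 0.99 in homozygous sample 4, 0.89 in sample 7 and 0.60 in sample 8, and between -0.02 and 0.47 in the other 5. Heterozygous libraries lay between -0.17 and 0.25, wildtype livers on CDAHFD between -0.02 and 0.38, and wildtype livers on chow between 0.37 and 0.75. With homozygous samples 4, 7 and 8 left out, a choice made after seeing the data, the median of 318 processed pseudogenes was 0.18 and 22 were higher at unadjusted p under 0.05, where 2.44% of all genes were higher and 4.25% lower. Tubb3, a beta-tubulin best known from neurons, had the lowest p on the higher side and was highest in sample 4. It had a median of 1.05 CPM (up to 1.62) in heterozygous and 1.98 CPM (up to 4.54) in homozygous livers, with 7 of 8 homozygous libraries above the heterozygous range (1.02 ± 0.21), and had a log2 fold change of 0.63 without the 3 samples. Without them the macrophage list had a median of -0.61, with 13 genes lower at unadjusted p under 0.05, and Mtarc1 a log2 fold change of -1.74. The inflammatory list then had 15 such genes and a median of -0.62, the collagens 7, antigen presentation 7 and the lysosome list 5. Sample 8 was also the highest homozygous library for Gpnmb, Clec7a, Mmp12 and Tnfaip3, and leaving it out by itself lowers the macrophage and inflammatory medians. Without sample 8 alone the macrophage median was -0.56 and the inflammatory median -0.52, with 7 inflammatory genes lower at unadjusted p under 0.05. The collagen median was -0.28 with 3 such genes without sample 8 alone, and -0.35 with 7 without sample 4 alone. Because the 3 samples were chosen after seeing the data, the values without them are not a check of any of these lists.

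**Figure D5:**
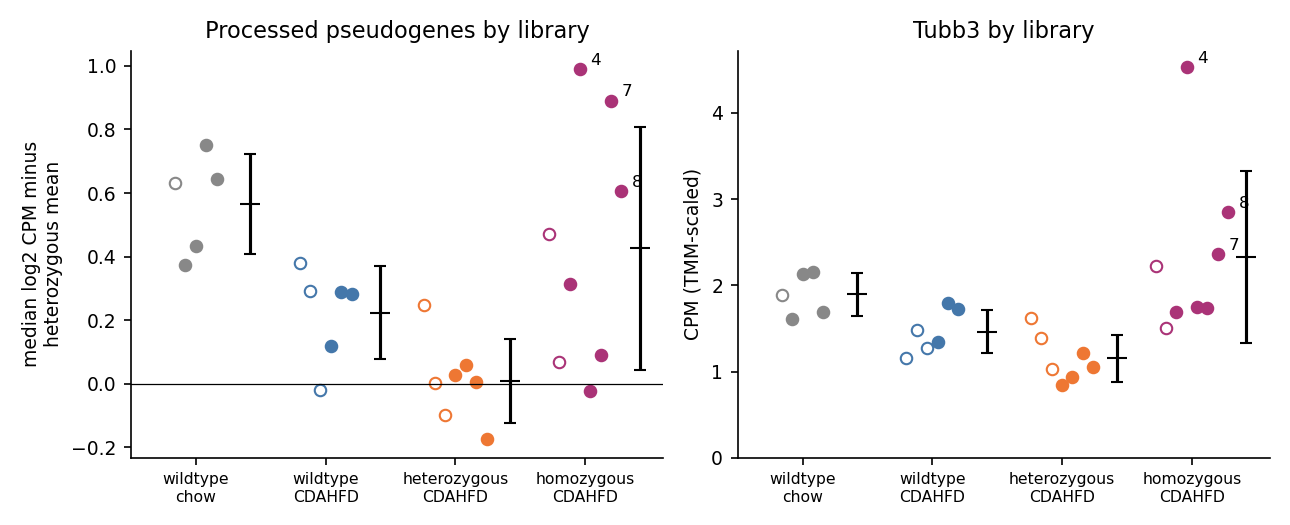
Left, median over 348 processed pseudogenes of log2 CPM minus the heterozygous mean in each library; right, Tubb3 in CPM. Points and bars are as for Mtarc1, and the numbers mark homozygous samples 4, 7 and 8, which are the highest of their group in both panels.

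Library quantities were compared between the 2 knockout groups. Total estimated counts were 27.1 ± 1.8 M (SD, n = 7) in heterozygous and 24.1 ± 3.1 M (mega; SD, n = 8) in homozygous libraries, with an exact permutation p of 0.0457 and 0.0914 after adjustment over 4 quantities. The 20 most abundant genes held 23.6% and 24.5% of counts (exact permutation p = 0.0329, adjusted 0.0914). The number of genes with a count did not differ beyond the spread (23137 and 22877, exact permutation p = 0.239). The part of these 3 quantities in the results was not tested. With the mitochondrial share as a term in the edgeR fit, the macrophage list median was -0.57, with 14 genes lower at unadjusted p under 0.05.

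The same 2 knockout groups can each be set against the wildtype livers on CDAHFD, and the 3 comparisons share libraries. The edgeR log2 fold changes of Trem2 were -1.03 for homozygous minus wildtype and -0.11 for heterozygous minus wildtype. For Gpnmb they were -1.92 and 0.03, for Cd83 -0.67 and -0.04, and for Angptl8 1.47 and -0.02. For Ctsd they were -0.26 and 0.15. None of these passed, with adjusted p-values of 0.17 or more. The macrophage list median was -0.67 for homozygous and -0.13 for heterozygous minus wildtype, and 1.72 for wildtype CDAHFD minus wildtype chow. Against wildtype on CDAHFD, in the same order, the collagen median was -0.54 and -0.23 and the inflammatory median -0.38 and -0.15. Other lists had heterozygous medians above wildtype: -0.11 and 0.11 for the lysosome, -0.01 and 0.19 for PPAR-alpha targets, and -0.02 and 0.09 for acute phase genes. Mtarc1 was at -2.27 in homozygous livers (adjusted p 8.02e-11 by edgeR) and at -0.55 in heterozygous livers (adjusted p 0.569), both against wildtype.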

How the data were processed

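Liver RNA was sequenced from 26 mouse samples, of which 15 are compared here. The authors deposited 1 table of estimated counts, which need not be whole (54.4% of values above 0 were), for 55642 Ensembl gene IDs. The tools named per the submitters' processing notes are cutadapt 3.5, an adapter trimmer, and Salmon 1.4.0, which estimates transcript abundance, and the mouse builds named are GRCm39 and mm39. How transcripts were summed to genes and whether strand was used are not given in the sources used here. Columns were matched to samples by library name and groups taken from sample titles. Symbols, gene types and gene order came from GENCODE vM21 (GRCm38, another build), which named 92.5% of IDs, and promoter sequences from RefSeq.

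Estimated counts were rounded and fitted with edgeR 4.0.16 (R 4.3.3): TMM scaling, filterByExpr by group, robust quasi-likelihood fit of 4 groups over all 26 libraries, and a quasi-likelihood F test of homozygous minus heterozygous, adjusted by Benjamini-Hochberg over 17104 genes, called at 0.05. Fold changes are log2 values with an SE from the F statistic. The common biological coefficient of variation was 21.5%. Libraries of one genotype differed by more than sampling noise (chi-square per degree of freedom 21.9 to 116.7 over 49 pairs). On simulated data for this comparison (16894 genes) the share of changed genes that was called was 64.2% at 1.5-fold, 85.1% at 2-fold and 95.5% at 4-fold, and 12 unchanged genes were called. In the simulation 67, 67 and 66 genes were changed at once at these sizes, all with a mean of at least 1 CPM. Its noise was drawn independently for each gene. The adjustment is stricter where fewer genes are called, so these shares do not say how many changed genes the real comparison would find.

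Permutation tests were two-sided and exact (scipy 1.17.1). Alternatives used DESeq2 1.42.0, limma 3.58.1 (voom), other scalings, filters, sample sets and covariates. The text names Mtarc1 and Mtarc2, up to 10 genes per direction by lowest p with a mean of at least 1 CPM, up to 3 members per list by lowest p, hepatocyte markers and flanking genes; genes picked with their values in view are named as such, and a few list members are given for contrast. The comparison and its 56 gene lists were chosen with earlier results of these data known, so lists are described by counts and medians and not tested. A gene that the naming rule selects is not reported here.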

Additional observations from a re-analysis of the deposited data

Results flagged for a closer look

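Single libraries that stood far from the rest of their group were sought by the gap between the most extreme library and its neighbour, relative to the range of the group, at a 95% critical value. Of 156 groups of libraries examined, 20 had such a library, where chance gives about 1 in 20 groups, or 7.8 here, if values are normally distributed. That was not checked for CPM, and the groups are not independent, as 7 of the 20 cases were homozygous sample 4. The 20 against 7.8 is therefore not a test.

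Homozygous sample 8 stood apart as the highest of its group for 6 genes, which include macrophage genes: Gpnmb at 17.6 CPM, Clec7a at 22.2, Mmp12 at 33.9, Tnfaip3 at 10.2, Hand2 at 11.8 and Lcn2 at 186 CPM. All 6 values lay within the heterozygous range, and the log2 fold changes above include this library. Homozygous sample 4 stood apart as the highest of its group, by this measure, in 7 cases: Tubb3 at 4.54 CPM, Gm5643 at 7.41, Gm9616 at 6.42, Gm12017 at 6.38, Gm8318 at 9.78, CR555305.3 at 6.03 CPM, and the share of all CPM in processed pseudogenes at 0.180%, against 0.0768% to 0.119% in the other homozygous libraries.

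The remaining cases were spread over libraries. Tnfaip3 was high in heterozygous sample 7 (11.3 CPM), Angptl8 in heterozygous sample 5 (40.8 CPM), and Pnpla3 in homozygous sample 6 (3.33 CPM). Ctsd was low in homozygous sample 7 (242 CPM), Tgfbr1 in homozygous sample 3 (21.8 CPM), Bmp10 in homozygous sample 2 (1.38 CPM) and Alb in heterozygous sample 4 (41436 CPM).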

How the results depend on the processing

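The number of genes called was 1 as reported and 1 to 1 when each of the 15 libraries was left out in turn, when Mtarc1 was the gene called each time. DESeq2 called 17. The 4-digit libraries alone also gave 1 call, which was Xlr4a and not Mtarc1. The Mtarc1 difference ranged from -120.1 to -104.1 CPM and the Mtarc2 difference from -23.4 to -7.48 CPM with a library left out. The number of genes at unadjusted p under 0.05 ranged from 860 without heterozygous sample 7 to 1742 without heterozygous sample 4. Of 1015 other values for 73 genes, 1000 kept direction and side of the threshold, 9 passed under DESeq2 and 1 (Mtarc1, 4-digit names) no longer passed. In 5 the direction turned: with 4-digit names Mtarc2 was at 0.028, Csf1r at 0.077, C1qb at 0.075 and Gm8326 at -0.013, and with 5-digit names Hnf4a at 0.048; the cause was not tested. For genes other than Mtarc1, keeping the side of the threshold means only that they again did not pass. Most were named for a low p from these same libraries, so the 1000 of 1015 does not measure robustness. Sample numbers did not pair the libraries (correlations -0.36 to 0.24 over 7 numbers), and a fit with the replicate block called 1 gene. Depth limits genes near 1 CPM, such as Klrb1c and Pnpla3.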

Other observations

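Xlr4a, an X-linked gene of the Xlr family chosen after its values were seen, was at 5.17 and 4.58 CPM in the 2 homozygous libraries with 4-digit names and at 0.08 to 0.14 CPM in the 3 heterozygous ones. In the other 6 homozygous libraries it was at 0.05 to 0.67 CPM, and heterozygous sample 5 was at 3.71 CPM. Over all 15 libraries its log2 fold change was 1.04 ± 0.96 (SE), with an edgeR adjusted p of 0.786.

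Vsig8, an immunoglobulin-domain gene also chosen after its values were seen, had a median of 0.72 CPM (0.24 to 1.94) in heterozygous and 0.043 CPM (0 to 0.49) in homozygous livers. Its log2 fold change was -2.59 ± 0.59, with an adjusted p of 0.339 by edgeR and 0.0416 by DESeq2. Processed pseudogenes were not the only class above 0: 71.3% of 502 genes of the GENCODE class TEC, whose existence awaits experimental evidence, 61.7% of 545 antisense genes and 60.3% of 464 lincRNA genes lay above 0, against 46.4% of 14272 protein-coding genes.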
